A study of Mus musculus with 4 samples.

Results

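The oxidative and xenobiotic defence genes are 42 mouse genes that detoxify peroxides, electrophiles, metals and foreign chemicals. They were examined in mDCT cells, a mouse kidney line, immortalised, that derives from the distal convoluted tubule. They were chosen by name, as a list, and each was read through the probe sets of an Affymetrix array that the platform annotation assigns to that gene symbol alone. Of the 42 genes, 38 had such a probe set among 18193 genes on the array. The brightest probe set of a gene, by mean log2 signal over the 4 libraries, was used, and other probe sets of the gene served as a check. The filter was the median mean signal of all probe sets, 55.9: 35 of the listed genes and 11057 genes in all were at or above it. Nqo1, Cyp1a1 and Aldh3a1 were under it and were only counted. Prdx1, Prdx5, Prdx6 and G6pdx had no probe set of that kind and were not analysed here. Next to the filter, Gstm2 had a mean signal of 57.2 and was kept, and Nqo1 had a mean of 42.3 and was not.

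All cells had been transfected with human MR carrying a FLAG tag (MR is the mineralocorticoid receptor, which aldosterone activates), so no library shows the line without the extra receptor. From 48 h after transfection they had 2 h of pretreatment and then 3 h of hormone or vehicle. The 4 treatments were 5 µM spironolactone (an MR antagonist) followed by 100 nM aldosterone, called the spironolactone library below, then ethanol vehicle, 1 nM aldosterone and 100 nM aldosterone. Each treatment had 1 library, so there is no replicate error, no p-value is given, and every difference below is one between 2 libraries. No library had spironolactone alone. Values are linear MAS5 signals, scaled before deposit to a common trimmed mean, and differences are differences of log2 signal.

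As a check of the hormone, the corticosteroid-induced kinase gene Sgk1 had a signal of 1424 in the spironolactone library, 801 in ethanol, 935 with 1 nM and 1810 with 100 nM aldosterone. Sgk1 is 1 of 5 genes taken as this check, all chosen with their values known. The line's tubular identity was partial. Of the 11 listed markers of the distal convoluted tubule, 9 were measured and 5 were at or above the filter, but Slc12a3, the thiazide-sensitive cotransporter that defines the segment, was under it. Of 8 proximal tubule markers 6 were at or above the filter, and so were 1 of 6 collecting duct and 2 of 5 epithelium markers. Of 7 fibroblast markers Vim and S100a4 were, and the 3 collagen genes among them were not. Pvalb (distal) and Slc5a2 (proximal) were under the filter in 2 libraries each, and Slc34a1 (proximal) in 1. The signal of the 9 measured distal markers was summed, those under the filter included. The sum was 9062 in the spironolactone library, 7677 in ethanol, 8267 with 1 nM and 7709 with 100 nM aldosterone. Most of it was Wnk1 (8372 in the spironolactone library, against 6887 in ethanol). The other 4 at or above the filter, Pvalb, Trpm6, Wnk4 and Stk39, were lower in the spironolactone library than in ethanol. The median difference of the 5 at or above the filter, spironolactone against ethanol, was -0.16. Their part in the results below was not tested.

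Cells meet oxidants and electrophiles mainly with a switch formed by the transcription factor NRF2 (gene Nfe2l2) and its cytosolic sensor KEAP1. KEAP1 holds NRF2 for degradation until its cysteines are modified, and NRF2 then binds antioxidant response elements in the promoters of genes for glutathione synthesis, thioredoxin recycling, NADPH supply and conjugation. A second sensor, the aryl hydrocarbon receptor AHR with its partner ARNT, induces cytochrome P450 enzymes on contact with planar aromatic compounds, and metallothioneins, which bind zinc, copper and cadmium, are induced by metals and, in many cells, by glucocorticoids. In kidney tubules these systems are known for limiting injury by oxidants and drugs, and excess MR activity is known to raise oxidant production there.

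Most of the defence genes held a near-constant signal over the 4 libraries. The ratio of the highest to the lowest library was under 1.2 for 25 of the 35 genes, where 58.2% of all genes at or above the filter were under 1.2. The median ratio was 1.11 for the defence genes and 1.17 for all genes. Signal level bears on this comparison. The 75th percentile of signal was 420, and 27 of the 35 genes exceeded it; 23 of these 27 (85.2%) had a ratio under 1.2, against 79.2% of all genes that bright; their median ratio was 1.09, against 1.12. Among the 8 dimmer defence genes 2 were under 1.2. The 10 genes at 1.2 or more were Keap1, Gss, Slc7a11, Gsta4, Gstm1, Gstm2, Mgst1, Ahr, Arnt and Aldh1a1, and Gsta4 alone passed 2-fold, with a ratio of 2.02.

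**Figure D1:**
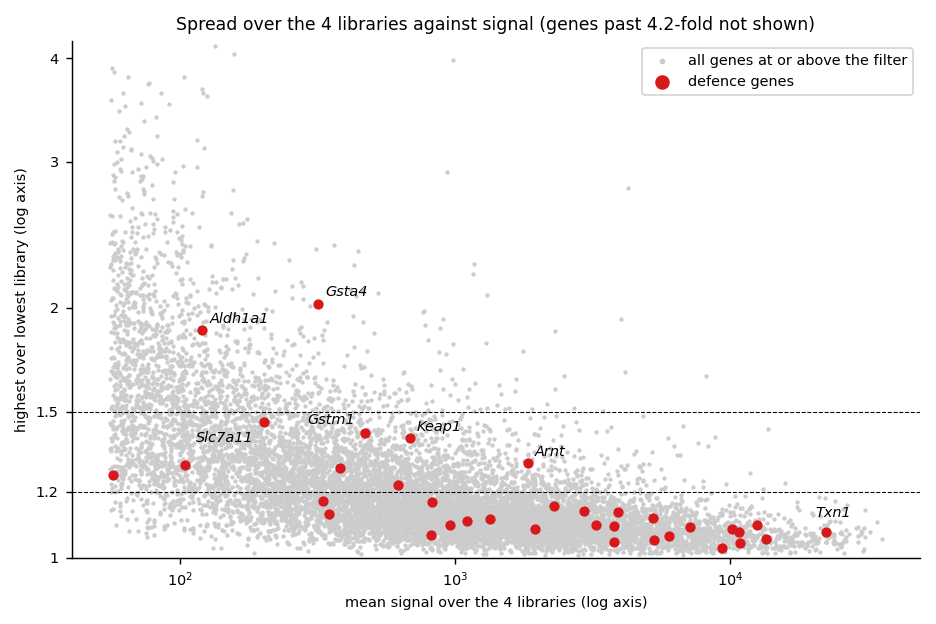
Ratio of the highest to the lowest of the 4 libraries (vertical, log axis) against mean MAS5 signal (horizontal, log axis), 1 point per gene, for the 35 defence genes (red) and all 11057 genes at or above the filter (grey). The spread narrows as signal rises; Gsta4 (2.02) and Aldh1a1 (1.88) are the 2 defence genes above the 1.5 line.

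Setting 100 nM aldosterone against ethanol addresses the effect of the higher dose. Of the 35 defence genes 2 (Keap1 and Gsta4) had a signal at least 1.2 times that in ethanol, where 9.36% of all genes were, and 2 at least 1.2-fold lower (Slc7a11 and Aldh1a1), where 9.32% were. At 1.5-fold the counts were 0 higher and 1 lower (Aldh1a1), beside 2.39% and 1.72% of all genes. Their median difference was 0.02 and that of all genes -0.0046. Either way, 4 of 35 passed 1.2-fold (18.7% of all genes), and 1 of the 27 bright ones did (6.88% of all bright genes). With 1 nM aldosterone against ethanol 1 was 1.2-fold higher (Mgst1; 10.3% of all genes) and 4 lower (Gss, Gsta4, Arnt and Aldh1a1; 9.96%), with a median of 0.01 against -0.01 for all genes. Either way that is 5 of 35 (20.3% of all genes), and 2 of the 27 bright ones (8.0% of all bright genes). At 1.5-fold 0 were higher (2.61% of all genes) and 1, Gsta4, lower (2.07%). In both comparisons the share of defence genes past 1.2-fold was below that of all genes. However, 27 of the 35 were bright, and bright genes passed 1.2-fold less often than all genes.

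The comparison of the spironolactone library with 100 nM aldosterone alone asks what the antagonist takes away. Of the 35 genes 1 was at least 1.2-fold higher with spironolactone (Aldh1a1; 8.95% of all genes) and 3 were lower (Keap1, Gstm1 and Gstm2; 10.7%). At 1.5-fold Aldh1a1 remained as the 1 higher gene (1.83% of all genes), and 0 were lower (2.51%). Either way, 4 of 35 passed 1.2-fold (19.7% of all genes), and 2 of the 27 bright ones (7.83% of all bright genes). The median difference was -0.04 and that of all genes -0.0027. Of the 35 genes 22 were below 0 and 13 above. Of all genes 5601 were below 0 and 5456 above, and of all bright genes 3364 below and 3572 above. Against ethanol, spironolactone with aldosterone had 1 higher gene at 1.2-fold (Gsta4; 8.52% of all genes) and 4 lower (Gss, Slc7a11, Arnt and Aldh1a1; 10.0%), which is 5 of 35 either way (18.5% of all genes) and 2 of the 27 bright ones (6.79% of all bright genes). Past 1.5-fold were 0 (2.17% higher and 2.03% lower among all genes).

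Between the doses, 100 nM against 1 nM aldosterone, 2 genes were 1.2-fold higher (Gsta4 and Gstm1; 9.18% of all genes) and 4 lower (Slc7a11, Mgst1, Ahr and Aldh1a1; 9.14%). Either way that is 6 of 35 (18.3% of all genes) and 1 of the 27 bright ones (6.31% of all bright genes). At 1.5-fold Gsta4 was higher (2.04% of all genes) and 0 were lower (1.96%). These comparisons share libraries, so a gene that stands apart in 1 library enters several of them. For 0 of the 35 genes did both aldosterone-alone libraries lie 1.2-fold above the other 2 libraries (1.47% of all genes) or below them (0.877%). The ethanol library was 1.2-fold above all 3 others for 1 gene, Aldh1a1 (2.31% of all genes), and 1.2-fold below them for 0 (2.92%).

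**Figure D2:**
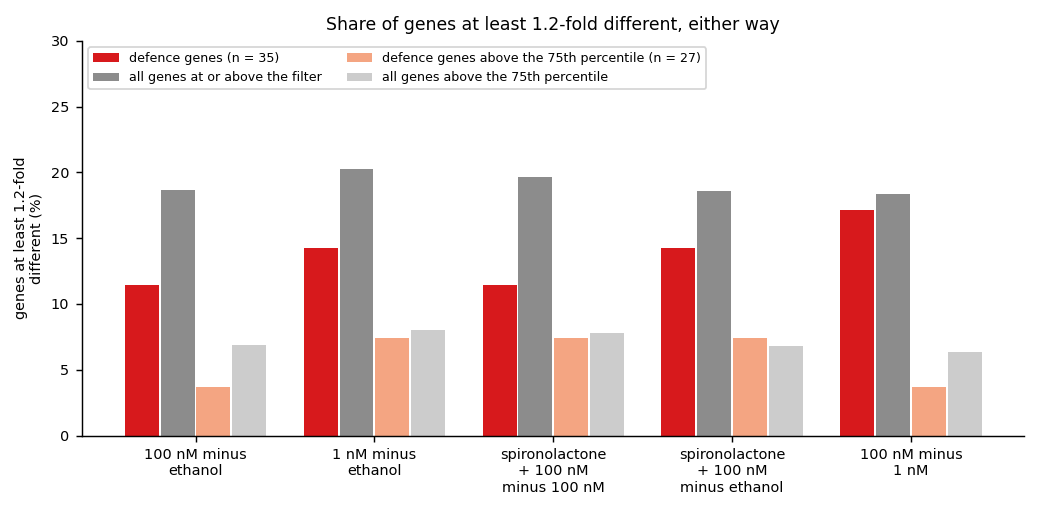
Share of genes at least 1.2-fold different in either direction (vertical, percent) in 5 comparisons, for the 35 defence genes, all genes at or above the filter, and both sets above the 75th percentile of signal. The defence genes lie between 11.4% and 17.1% and all genes between 18.3% and 20.3%; above the 75th percentile the ranges are 3.70% to 7.41% and 6.31% to 8.0%, and for spironolactone against ethanol the defence genes are the higher (7.41% against 6.79%).

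**Figure D3:**
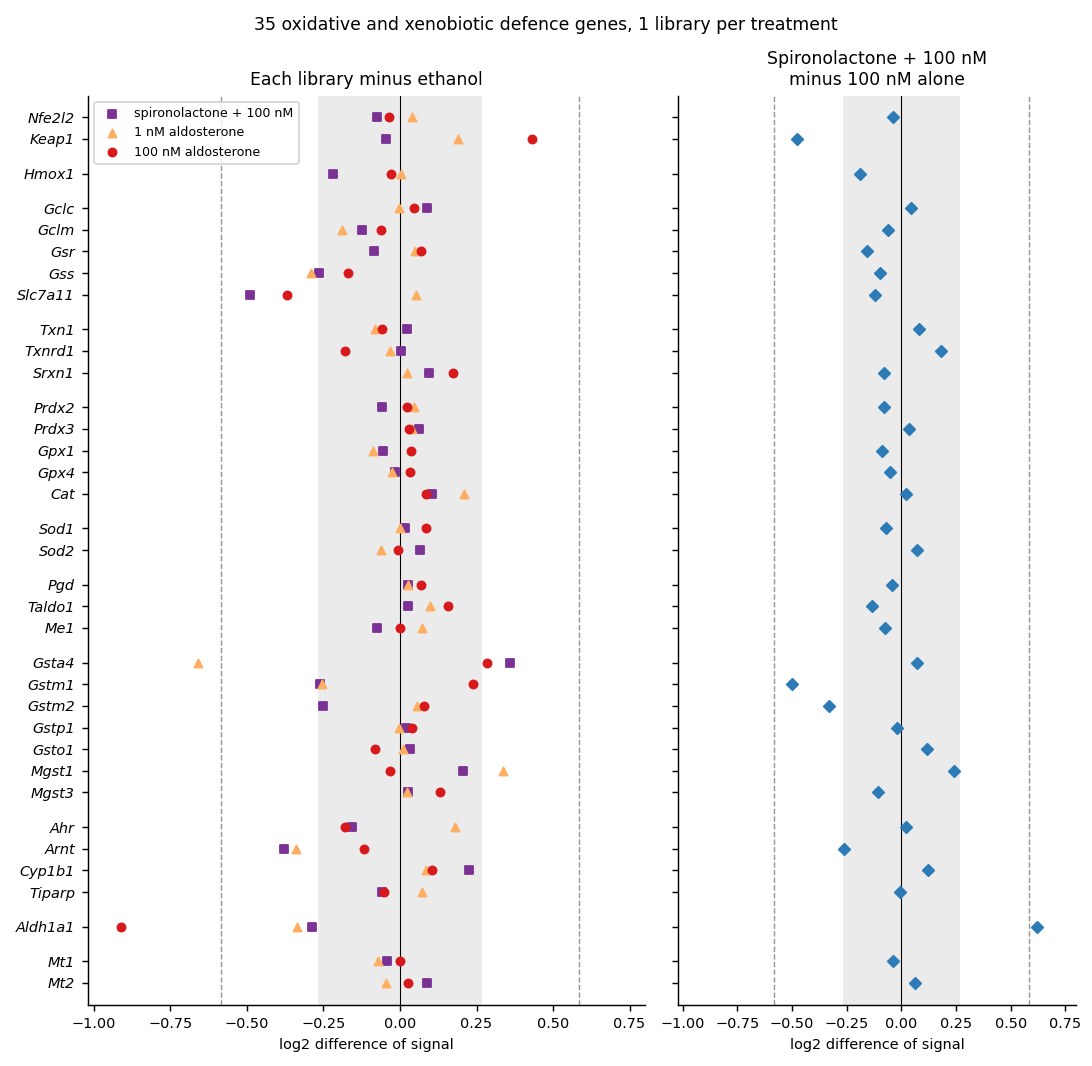
log2 difference of signal (horizontal) for the 35 defence genes, ordered by role (vertical), as each library minus ethanol (left) and the spironolactone library minus 100 nM aldosterone alone (right), 1 library per treatment. The grey band spans 1.2-fold and the dashed lines 1.5-fold; Aldh1a1 with 100 nM (-0.91) and Gsta4 with 1 nM (-0.66) lie beyond the dashed line against ethanol.

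A second probe set of the same gene gives a check within the same libraries. Over all genes with a second probe set at or above the filter, the brightest and the next one had the same sign in 53.8% of 612 genes at least 1.2-fold different between 100 nM aldosterone and ethanol, and in 55.7% of 664 such genes between spironolactone and 100 nM aldosterone. Of the defence genes 23 had a second probe set at or above the filter and 12 had 1 alone. Among the differing genes listed above, the second probe set had the same sign for Keap1 and the opposite sign for Slc7a11 with 100 nM against ethanol. It had the same sign for Keap1 and Gstm1 with spironolactone against 100 nM, and for Slc7a11, Gstm1 and Ahr between the doses. It had the opposite sign for Gss and Arnt with 1 nM against ethanol, and for Gss, Slc7a11 and Arnt with spironolactone against ethanol. Over all genes the share with the same sign was 56.3% of 675 genes for 1 nM against ethanol, 56.2% of 623 for spironolactone against ethanol and 51.5% of 596 between the doses.

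Of the 2 arms of the NRF2 switch, the sensor passed 1.2-fold and the factor did not. Nfe2l2 had a signal of 1876 in the spironolactone library, 1975 in ethanol, 2028 with 1 nM and 1927 with 100 nM aldosterone, a ratio of highest to lowest of 1.08. Keap1 had 602 in the spironolactone library, 622 in ethanol, 708 with 1 nM and 838 with 100 nM aldosterone. In words, Keap1 stood highest with the higher dose, between at the lower dose, and at about the ethanol level when spironolactone came first. The difference was 0.43 for 100 nM and 0.19 for 1 nM against ethanol, -0.48 for spironolactone against 100 nM, and -0.05 for spironolactone against ethanol. The second Keap1 probe set, at a lower signal, had 170 in the spironolactone library, 160 in ethanol, 237 with 1 nM and 238 with 100 nM. There both aldosterone-alone libraries stood above the other 2, by 0.58 (100 nM) and 0.57 (1 nM) over ethanol, and the 2 doses were level. Keap1 was the 1 defence gene whose probe sets at or above the filter, 2 of 2, were both at least 1.2-fold higher with 100 nM than in ethanol and at least 1.2-fold lower with spironolactone than with 100 nM alone. Of the 5218 genes with several probe sets at or above the filter, 10 met this rule (0.192%). Of the 23 such defence genes 1 did. The rule was formed after the Keap1 values were seen, so Keap1 was bound to meet it. Genes with more than 2 probe sets also had more to pass. The share is therefore not a measure of how rare the Keap1 pattern is.

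**Figure D4:**
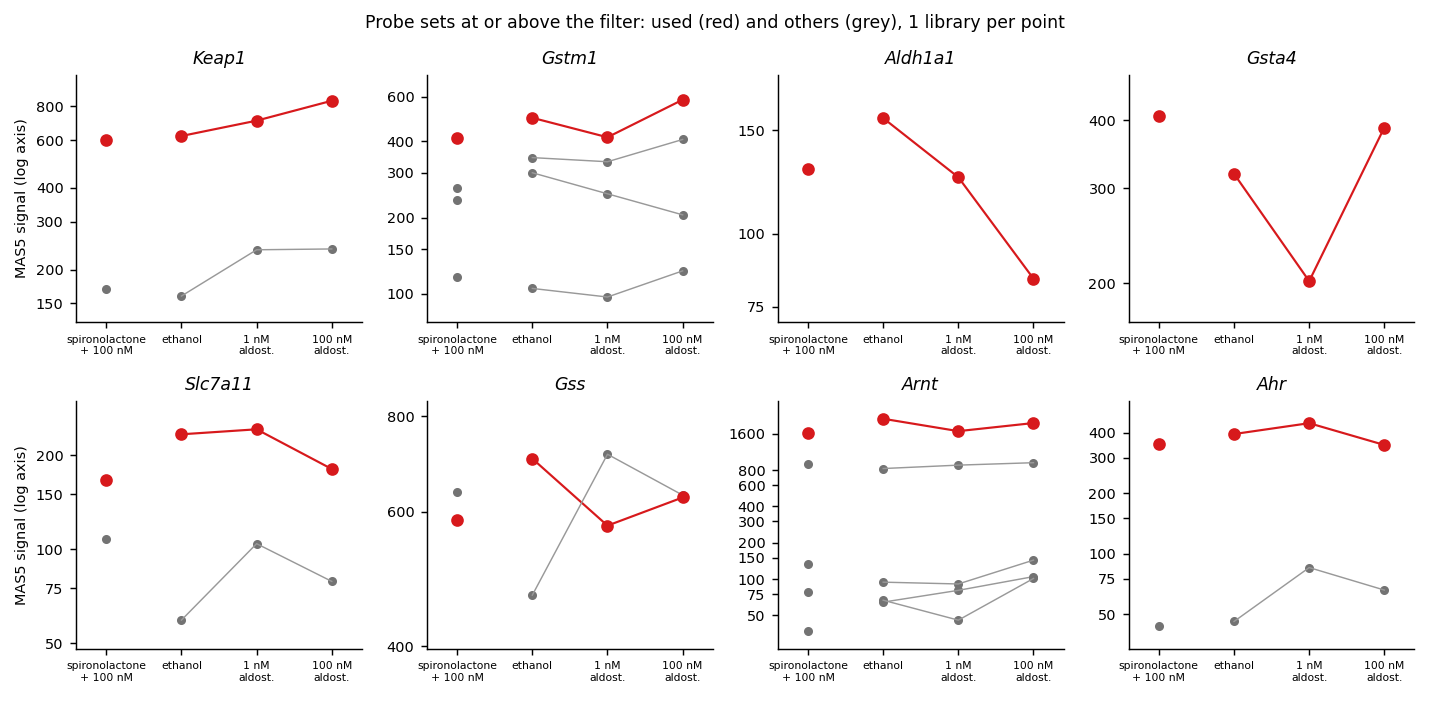
MAS5 signal (vertical, log axis) in each of the 4 libraries (horizontal) for 8 defence genes, 1 panel per gene; red marks the probe set used, grey the gene's other probe sets at or above the filter, and lines join ethanol and the 2 aldosterone doses. Both Keap1 probe sets are higher with 100 nM aldosterone (838 and 238) than with spironolactone before it (602 and 170), while the 2 Gss probe sets run opposite ways from ethanol.

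The promoters of the switch and of its targets were read from RefSeq (build GRCm38.p6) as windows of 250 bases before to 50 bases after the annotated start, and 30 of the 35 genes matched, with 40 windows. The core of the antioxidant response element, TGACNNNGC on either strand, lay in 10 of these 40 windows (25.0%) and in 12.4% of all 32851 windows. The 10 genes were Arnt, Gclm, Me1, Mgst1, Mt2, Nfe2l2, Pgd, Sod1, Srxn1 and Txnrd1. Of them 8 had a ratio of highest to lowest library under 1.2, as had 14 of the 20 genes without the core; the median ratios were 1.12 and 1.09. The xenobiotic response element core TNGCGTG, bound by AHR and ARNT, lay in 1 window (Pgd), 2.50%, against 5.07% of all. The metal response element was searched as TGCGCNC, found in 10.0% of the defence windows and 15.4% of all, and as TGCACNC, found in 12.5% and 12.6%. The palindrome bound by MR and the glucocorticoid receptor (the inverted repeat steroid receptor element) lay in the Mt1 window alone, 2.50% against 0.475% of all. A match is a run of letters and not a measured binding site. The windows of Keap1, the sensor gene, and of Gclm, an NRF2 target that held its level, are shown. They run 5′ to 3′ on the strand of the gene, with matches to any of these motifs in capitals. Keap1 held none in its window, chr9:21239283-21239582 on the minus strand. Gclm, chr3:122245307-122245606 on the plus strand, held an antioxidant core on the reverse strand (GCACCGTCA, its first base at -134 from the start) that overlaps a metal response match, and 2 further metal response matches.
Keap1: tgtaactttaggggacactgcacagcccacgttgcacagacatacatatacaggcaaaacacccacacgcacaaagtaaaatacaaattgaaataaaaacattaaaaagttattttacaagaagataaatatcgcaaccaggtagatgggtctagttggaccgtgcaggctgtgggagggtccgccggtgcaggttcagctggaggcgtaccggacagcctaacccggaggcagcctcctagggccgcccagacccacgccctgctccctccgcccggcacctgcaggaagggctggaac
Gclm: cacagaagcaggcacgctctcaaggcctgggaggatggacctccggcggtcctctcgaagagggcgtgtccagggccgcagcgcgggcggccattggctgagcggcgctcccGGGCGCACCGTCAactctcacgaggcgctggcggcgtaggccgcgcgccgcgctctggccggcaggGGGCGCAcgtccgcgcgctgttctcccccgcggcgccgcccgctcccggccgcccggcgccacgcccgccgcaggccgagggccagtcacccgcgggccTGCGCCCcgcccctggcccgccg

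Hmox1, which encodes the haem-degrading enzyme haem oxygenase 1 and is a sensitive NRF2 target, had 740 in the spironolactone library, 862 in ethanol, 864 with 1 nM and 844 with 100 nM aldosterone. The spironolactone library was the lowest, with log2 differences of -0.22 against ethanol and -0.19 against 100 nM, which is under 1.2-fold, and the other 3 libraries lay within 844 to 864.

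Among the genes that supply glutathione, the rate-limiting ligase pair held its level. Gclm, the modifier subunit, had 2899 in the spironolactone library, 3157 in ethanol, 2772 with 1 nM and 3021 with 100 nM aldosterone, and Gclc, the catalytic subunit, lay between 803 and 855 in all 4. Gsr, glutathione reductase, had 1256 in the spironolactone library, the lowest of the 4, and 1334 in ethanol, 1378 with 1 nM and 1399 with 100 nM aldosterone; its second probe set was also lowest with spironolactone (1103, against 1294 in ethanol). Gss, glutathione synthetase, had 585 in the spironolactone library, 704 in ethanol, 575 with 1 nM and 626 with 100 nM. Its second probe set ran the other way, with 637 in the spironolactone library, 466 in ethanol, 713 with 1 nM and 630 with 100 nM, so no direction can be given for Gss. The first of these is of a type whose probes can match more than 1 transcript family.

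Slc7a11, the cystine-glutamate exchanger that feeds glutathione synthesis, had 166 in the spironolactone library, 234 in ethanol, 242 with 1 nM and 181 with 100 nM aldosterone. Both libraries with 100 nM aldosterone were thus lower than the other 2, with log2 differences from ethanol of -0.49 (spironolactone) and -0.37 (100 nM alone). Its second probe set had 108 in the spironolactone library, 59.2 in ethanol, 104 with 1 nM and 78.8 with 100 nM, where ethanol was the lowest. What the 2 probe sets shared was a lower signal with 100 nM than with 1 nM, with differences of -0.42 and -0.40.

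The thioredoxin system, which reduces protein disulphides and recharges peroxiredoxins, was level at its bright probe sets. Txn1, thioredoxin itself, had 23155 in the spironolactone library, 22787 in ethanol, 21537 with 1 nM and 21890 with 100 nM aldosterone. Txnrd1, its NADPH-dependent reductase, had 4059 in the spironolactone library, 4045 in ethanol, 3955 with 1 nM and 3576 with 100 nM. Here the 100 nM library was the lowest, with a difference of -0.18 against ethanol, and spironolactone lay 0.18 above it; the second Txnrd1 probe set, at 118 to 128, differed by -0.02 for 100 nM against ethanol. Srxn1, the sulphiredoxin that repairs over-oxidised peroxiredoxins, had 356 in the spironolactone library, 333 in ethanol, 338 with 1 nM and 376 with 100 nM. Dimmer probe sets of this group varied more: the second of Txn1 had 123 in the spironolactone library, 191 in ethanol, 136 with 1 nM and 204 with 100 nM. The second of Srxn1 had 143 in the spironolactone library, 103 in ethanol, 140.0 with 1 nM and 94.3 with 100 nM. For spironolactone against 100 nM these are differences of -0.73 for Txn1 and 0.60 for Srxn1, in opposite directions.

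The peroxide-removing enzymes all had a ratio under 1.2 at their brightest probe sets. Prdx2, a cytosolic peroxiredoxin, had 10363 in the spironolactone library, 10791 in ethanol, 11137 with 1 nM and 10964 with 100 nM aldosterone, and Prdx3, the mitochondrial one, lay between 3706 and 3869. Gpx1 and Gpx4 encode selenium-containing glutathione peroxidases, the second of which protects membranes from lipid peroxides. Gpx1 had 6987 in the spironolactone library, 7263 in ethanol, 6837 with 1 nM and 7440 with 100 nM, and Gpx4 lay between 10727 and 11179 at one probe set and between 9740 and 10173 at the other. Cat, catalase of the peroxisome, had 2297 in the spironolactone library, 2136 in ethanol, 2468 with 1 nM and 2263 with 100 nM; the 1 nM library was highest there, but at the second probe set the 100 nM library was (1534, against 1310 to 1335 in the others). The 5 genes had ratios of 1.04 to 1.16.

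The superoxide dismutases turn superoxide into hydrogen peroxide. Sod1, the cytosolic copper-zinc enzyme, had 5976 in the spironolactone library, 5910 in ethanol, 5914 with 1 nM and 6269 with 100 nM aldosterone. The 100 nM library was the highest at all 3 Sod1 probe sets, by 0.09, 0.14 and 0.27 over ethanol, the largest difference at the dimmest of them. Sod2, the mitochondrial manganese enzyme, lay between 3618 and 3947, with differences from ethanol of 0.06 (spironolactone), -0.06 (1 nM) and -0.01 (100 nM). At the next to dimmest of its probe sets 100 nM differed from ethanol by -0.26, and at the dimmest 1 nM differed from ethanol by 0.74.

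The enzymes that supply NADPH, the reductant on which glutathione and thioredoxin recycling draw, differed by less than 1.2-fold over the libraries at their brightest probe sets. Pgd, of the pentose phosphate pathway, lay between 5191 and 5443. Taldo1, transaldolase of the same pathway, had 5085 in the spironolactone library, 4999 in ethanol, 5348 with 1 nM and 5574 with 100 nM aldosterone, which is an order ethanol, 1 nM, 100 nM with spironolactone near ethanol, though within a ratio of 1.12. Me1, cytosolic malic enzyme, lay between 1054 and 1166. Its second probe set was lowest in the spironolactone library and had 736 in ethanol, 649 with 1 nM and 753 with 100 nM, with a difference of -0.33 for spironolactone against 100 nM and -0.29 against ethanol. The dimmest Pgd probe set was lowest in ethanol (1724, against 2029 to 2051 in the other libraries).

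The glutathione transferases, which couple glutathione to electrophiles and drugs, ranged from the lowest to the highest ratio of the list. Gstp1 lay between 9258 and 9519, with the lowest ratio of the 35 genes (1.03), and Gsto1 between 9646 and 10445. Mgst3, a membrane-bound transferase, had 951 in the spironolactone library, 935 in ethanol, 951 with 1 nM and 1023 with 100 nM aldosterone.

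Gsta4, which removes the lipid peroxidation product 4-hydroxynonenal, had 408 in the spironolactone library, 319 in ethanol, 202 with 1 nM and 388 with 100 nM aldosterone. The 1 nM library alone was low, at -0.66 against ethanol, and both libraries with 100 nM were above ethanol, by 0.36 (spironolactone) and 0.28 (100 nM alone). Gsta4 had 1 probe set, so no second one bears on it.

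Gstm1, a mu-class transferase, had 414 in the spironolactone library, 496 in ethanol, 415 with 1 nM and 584 with 100 nM aldosterone. The 100 nM library was the highest and the spironolactone and 1 nM libraries were level, with differences of -0.50 for spironolactone against 100 nM and 0.24 for 100 nM against ethanol. At the next probe set the signals were 262 in the spironolactone library, 345 in ethanol, 332 with 1 nM and 407 with 100 nM, a difference of -0.64 for spironolactone against 100 nM. The dimmer remaining probe sets differed by 0.20 and -0.08 in that comparison. At the brighter of them the 100 nM library was the lowest (205, against 301 in ethanol). There 100 nM differed by -0.55 from ethanol and by -0.28 from 1 nM. At the dimmest these differences were 0.23 and 0.34. Mu-class genes are alike in sequence, so probes of one may also catch another. Gstm2, of the same class, was at the filter, with 49.1 in the spironolactone library (under the filter), 58.4 in ethanol, 60.7 with 1 nM and 61.7 with 100 nM. Mgst1, a microsomal transferase, had 111 in the spironolactone library, 96.1 in ethanol, 121 with 1 nM and 93.9 with 100 nM.

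In the aryl hydrocarbon receptor arm, the receptor gene Ahr had 354 in the spironolactone library, 395 in ethanol, 447 with 1 nM and 348 with 100 nM aldosterone. The 1 nM library was the highest, and 100 nM differed from 1 nM by -0.36. The dimmer probe set was also highest with 1 nM (85.2, against 43.5 to 65.9 in the others), but 2 libraries were under the filter there. Arnt, its dimerisation partner, had 1633 in the spironolactone library, 2125 in ethanol, 1678 with 1 nM and 1958 with 100 nM. Its second probe set did not share this order, with 904 in the spironolactone library, 823 in ethanol, 878 with 1 nM and 920 with 100 nM, and the 3 dimmest were higher with 100 nM than in ethanol by 0.60 to 0.70 from signals of 64.5 to 94.4. The AHR targets were under 1.2-fold at their brightest probe sets. Tiparp, an ADP-ribosyltransferase that restrains AHR, had 3142 in the spironolactone library, 3272 in ethanol, 3438 with 1 nM and 3156 with 100 nM. Cyp1b1, a P450 that oxidises aromatic hydrocarbons and steroids, had 362 in the spironolactone library, 310 in ethanol, 329 with 1 nM and 333 with 100 nM; the spironolactone library was the highest, by 0.23 against ethanol. The dimmer Cyp1b1 probe set was highest with 1 nM instead, with 92.3 in the spironolactone library, 77.1 in ethanol, 117 with 1 nM and 96.7 with 100 nM.

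Aldh1a1, an aldehyde dehydrogenase that makes retinoic acid and clears reactive aldehydes, had 129 in the spironolactone library, 157 in ethanol, 125 with 1 nM and 83.7 with 100 nM aldosterone. The signal was highest in ethanol and lowest with 100 nM, and the spironolactone library lay level with 1 nM. The difference was -0.91 for 100 nM against ethanol, -0.34 for 1 nM against ethanol and 0.62 for spironolactone against 100 nM. Aldh1a1 had 1 probe set, below the 75th percentile of signal. Of the 190 genes at least 1.5-fold lower with 100 nM than in ethanol, 13 were above that percentile. Aldh3b1, an aldehyde dehydrogenase outside the 42 genes, had 154 in the spironolactone library, 158 in ethanol, 125 with 1 nM and 92.3 with 100 nM. The other 4 aldehyde dehydrogenases of its list at or above the filter, Aldh2, Aldh3a2, Aldh7a1 and Aldh9a1, had ratios of highest to lowest library of 1.02 to 1.14.

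The metallothioneins, textbook targets of both metals and glucocorticoids, were bright and level. Mt1 had 13345 in the spironolactone library, 13740 in ethanol, 13060 with 1 nM and 13725 with 100 nM aldosterone. Mt2 had 13190 in the spironolactone library, 12410 in ethanol, 12033 with 1 nM and 12623 with 100 nM. Neither differed by more than 0.09 from ethanol in any library, and the ratios were 1.05 and 1.10. A dim second Mt1 probe set had 103 in the spironolactone library, 167 in ethanol, 112 with 1 nM and 96.9 with 100 nM, so ethanol stood highest there. The windows of both genes are shown since they hold the steroid receptor palindrome and the metal response elements beside these level signals; they lie on chromosome 8, plus strand, at chr8:94178839-94179138 for Mt1 and chr8:94172368-94172667 for Mt2. Capitals mark matches to any motif above. In Mt1 these are the palindrome GGACATGATGTTC, whose first base is at -94 from the start, and 3 metal response matches. In Mt2 they are 4 metal response matches and the antioxidant core TGACTCAGC, which also contains the AP-1 motif TGACTCA.
Mt1: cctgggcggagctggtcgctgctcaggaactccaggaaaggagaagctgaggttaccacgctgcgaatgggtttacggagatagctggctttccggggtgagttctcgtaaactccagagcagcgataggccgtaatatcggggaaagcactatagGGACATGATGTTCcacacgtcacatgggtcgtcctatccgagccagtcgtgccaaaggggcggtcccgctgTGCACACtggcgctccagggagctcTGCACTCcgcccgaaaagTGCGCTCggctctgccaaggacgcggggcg
Mt2: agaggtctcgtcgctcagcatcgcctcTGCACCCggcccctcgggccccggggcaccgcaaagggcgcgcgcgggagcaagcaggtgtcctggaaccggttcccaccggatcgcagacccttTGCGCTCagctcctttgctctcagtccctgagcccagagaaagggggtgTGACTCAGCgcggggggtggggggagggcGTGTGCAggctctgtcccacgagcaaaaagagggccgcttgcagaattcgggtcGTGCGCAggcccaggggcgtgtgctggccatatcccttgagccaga

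Other genes of these pathways, from lists chosen by function, were counted at 1.5-fold. Of 10 partners and regulators of NRF2, 0 were 1.5-fold higher and 1 lower with 100 nM against ethanol: Btrc, a ubiquitin ligase adaptor that marks NRF2, had 186 in the spironolactone library, 247 in ethanol, 240 with 1 nM and 155 with 100 nM. With 1 nM the 1 gene past 1.5-fold was Rbx1, the RING subunit of the KEAP1 ligase, with 61.4 against 97.5 in ethanol. Between the doses both passed 1.5-fold, Rbx1 higher (0.73) and Btrc lower (-0.63) with 100 nM than with 1 nM. Of 19 other thiol and peroxide enzymes 1 was 1.5-fold lower with 100 nM, the glutaredoxin Glrx3 (49.6, against 83.8 in ethanol, the first under the filter), and 1 with spironolactone against ethanol, the stress-induced sestrin Sesn2 (217, against 342 in ethanol). Of 17 other NRF2-linked enzymes and iron genes 0 passed 1.5-fold in any of the 5 comparisons. Of 9 xenobiotic enzymes Aldh3b1 alone did, lower with 100 nM and higher with spironolactone against 100 nM. Of 6 zinc-handling genes 0 did. The background shares are those given above for each comparison. With 100 nM against ethanol, 1.72% of all genes were 1.5-fold lower. The 1 lower gene in each of the lists of 10, 19 and 9 is a larger share than that. The lists are short, so these shares turn on single genes. Of the 5 corticosteroid-induced genes taken as a check, chosen with their values known, 3 were 1.5-fold higher with 100 nM than in ethanol. With 1 nM 0 of the 5 were, and in the spironolactone library 2 still were. Because of how these 5 were chosen, their counts set no standard for the defence genes.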

How the data were processed

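The authors deposited linear probe set intensities, and MAS5 is named per the submitters' processing notes. Its version and target level were not given in the sources used here. Its trimmed mean, leaving out 2% at each end, was 500.003 in every library, so the authors had scaled the arrays, and no further scaling was applied. Of 45101 probe sets 64 were controls and were left out. Symbols came from the platform annotation (34958 probe sets with 1 symbol, 932 with several), and 34754 matched RefSeq genes of GRCm38.p6 by Entrez identifier, with 0 symbols changed. Other sample columns numbered 0. Each library took its treatment from its own label. By rule, genes were given in order of role, those at least 1.2-fold different and the 4 regulators with all 4 signals and the rest by range; where another gene's 4 signals are given, it was picked after its values were seen. The members and lists were chosen with earlier results of these data known. Differences were taken on log2 intensity with no pseudocount; with 1 array per treatment, the number of arrays limits the precision. Alternatives were quantile normalization, centring, other probe sets, filters and a floor. The counting of differences was tested on simulated data, with planted differences larger than 1.5-fold in genes above the filter and little noise. That checks the calculation and not how reliable a measured difference is. Python 3.11.15, numpy 2.4.6, pandas 2.3.3 and matplotlib 3.10.9 were used.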

Additional observations from a re-analysis of the deposited data

How the results depend on the processing

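The 5 median differences lay between -0.05 and 0.05 under every alternative tried, and another scaling moved the all-gene median by at most 0.03. The counts past 1.5-fold are small and moved by 1 or 2 genes. For 100 nM against ethanol, 1 gene was higher with the median over probe sets and 1 with no filter (0 as reported), and 2 were lower with probe sets without a suffix and 0 with the filter at the 75th percentile (1 as reported). For 1 nM against ethanol, 1 was higher without suffixed probe sets and 2 with no filter (0 as reported), and 2 were lower with no filter and 0 at the 75th percentile (1 as reported). For spironolactone against 100 nM, 2 were higher without suffixed probe sets, 2 with no filter and 0 at the 75th percentile (1 as reported), and 1 was lower without suffixed probe sets (0 as reported). For spironolactone against ethanol, 1 was higher with no filter and 1 lower without suffixed probe sets (0 as reported). Between the doses 0 were higher at the 75th percentile (1 as reported), and 1 was lower after centring and 1 with no filter (0 as reported). Both aldosterone-alone libraries parted from the others for 1 gene with the median over probe sets (0 as reported). The ethanol library stood apart for 0 genes after centring, 2 with the median over probe sets, 3 without suffixed probe sets, 3 with no filter and 0 at the 75th percentile (1 as reported). Filters change these counts through the genes they admit; the cause of the other shifts was not tested.

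Differences of at least 1.2-fold numbered 24, in 10 genes. Each was recalculated with both scalings, both other choices of probe set and the floor, and 19 kept their sign and 5 turned. Gsta4, Gstm2, Mgst1 and Aldh1a1 had 1 probe set each at or above the filter. The other choices of probe set could not alter their differences, and a floor cannot reverse a sign. The 19 are therefore not a measure of how reliable the differences are. The 5 that turned were all in genes with several probe sets. Gss for 1 nM against ethanol became 0.16 with the median over probe sets and 0.61 without suffixed probe sets, and for spironolactone against ethanol 0.0914 and 0.45. With the median over probe sets, Slc7a11 became 0.0212 for 100 nM and 0.19 for spironolactone against ethanol, and Arnt 0.14 for spironolactone against ethanol. Others kept their sign and moved: with the median over probe sets Arnt for 1 nM against ethanol became -0.05, under 1.2-fold, and Gstm1 became -0.29 for spironolactone against 100 nM and 0.32 between the doses. Without suffixed probe sets Gstm1 became -0.64 and 0.29 in these comparisons. With the floor Gstm2 for spironolactone against 100 nM became -0.14, under 1.2-fold. No paired analysis was possible because each treatment has 1 library. Dim genes more often differed by 1.2-fold than bright ones in each of the 5 comparisons, and no detection calls were used here.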
